A study of Mus musculus with 7 samples.

Results

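The day 21 vehicle library, from a tumor taken 7 days after a 14-day course of gefitinib had ended, was set against the day 3 vehicle library, from a tumor never given gefitinib. These are 2 of the 7 libraries of the series, and 13998 of 21892 gene symbols were compared, those with a mean of at least 1 TPM (a length-normalized transcript level) over the 7 libraries. All tumors carried an exon 19 deletion of Egfr, grew under the skin and were passaged in C57BL/6 mice, and RNA of the whole frozen tissue was read after removal of ribosomal RNA. The titles call both libraries vehicle, whereas the treatment fields record no treatment. Gefitinib is a small-molecule inhibitor of the EGFR kinase. Each group is 1 library, and the number of animals in it is not stated in the labels. Past gefitinib and the later day therefore cannot be told apart, and every difference below is between 2 libraries with no replicate check. The files give no tumor volume, so regrowth itself was not examined.

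EGFR with an exon 19 deletion signals without ligand through RAS, RAF, MEK and ERK, the MAPK cascade, which induces ETS transcription factors and cyclin D1 together with its own brakes, the Sprouty and Spred proteins and the dual-specificity phosphatases. Lung tumors of this kind usually keep features of alveolar type 2 cells, which make surfactant. Interferons act through interferon regulatory factors, among others, and raise antigen presentation on MHC molecules, by which T cells recognise a tumor. PD-1, encoded by Pdcd1, restrains T cells, and VEGFR2, encoded by Kdr, drives vessel growth. These are the targets of the antibodies that other groups of the series received.

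At day 21, 2140 of the 13998 genes (15.3%) were at least 2-fold higher than at day 3 and 435 (3.11%) were at least 2-fold lower, on the scale log2((TPM + 1) / (TPM + 1)), which understates the change of low genes. At least 4-fold apart were 556 genes that were higher (3.97%) and 50 that were lower (0.357%). The shares of 15.3% higher and 3.11% lower are the background for every list count below. The median over all compared genes was 0.04. Genes in the higher set held 5.20% of all TPM at day 3 and 18.4% at day 21, and genes in the lower set 7.90% and 3.00%. Low genes were called more often: 24.2% of the 4364 genes with a mean below 10 TPM were higher, against 10.3% of the 1772 genes at 100 TPM or more. All 13 mitochondrially encoded protein genes are listed at 0 in every library, so a value of 0 is reported only as listed. In whole tissue, fewer cells of a type and less RNA per cell cannot be told apart.

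**Figure D1:**
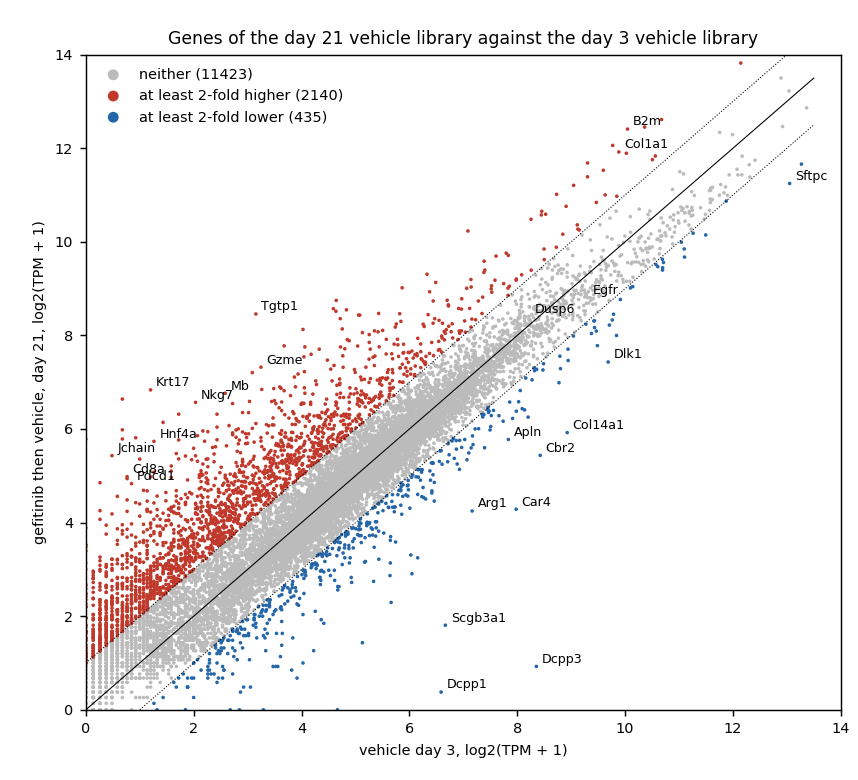
Level of each of the 13998 compared genes in the day 3 vehicle library (x axis) and the day 21 vehicle library (y axis), both as log2(TPM + 1), with 2-fold bounds dotted. The 2140 red points above the upper bound outnumber the 435 blue points below the lower one, and Dcpp3, Dcpp1 and Scgb3a1 lie farthest below.

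The targets and feedback genes of MAPK signalling were back near their untreated level as a group, with members on either side of it. The list's 20 genes summed to 1747 TPM at day 3, 948 TPM at day 14 of gefitinib and 1837 TPM at day 21. Their median log2 difference was 0.10. Of the 20 genes, 4 were higher and 1 lower, against 15.3% and 3.11% of all compared genes. With a rescaling that leaves out abundant genes the list's median was -0.00, so it has no direction. Dusp6, an ERK phosphatase, was at 296.1 TPM at day 3, 125.5 at day 14 of gefitinib and 338 at day 21. Ccnd1, which encodes cyclin D1, was at 280, 188.5 and 316.6 TPM in that order. Both levels at day 21 lay slightly above the untreated ones.

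The 4 higher members were early-response genes. Ier3 was at 24.1 TPM at day 3, 64.6 at day 14 of gefitinib and 93.1 at day 21, a log2 difference of 1.91. The phosphatase gene Dusp5 was at 17.2 and 51.6 TPM (1.53) at days 3 and 21, Phlda1 at 39.7 and 100.4 TPM (1.32) and the growth regulator Myc at 42.6 and 100.6 TPM (1.22). All 4 were also above the day 3 vehicle level at day 14 of gefitinib. The lower member was Etv1, an ETS factor, at 11.5 and 4.9 TPM (-1.08).

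Several feedback inhibitors and the ETS factor Etv5 were below the untreated level. Spry2, a Sprouty inhibitor, was at 76.1 TPM at day 3, 29.2 at day 14 of gefitinib and 41.4 at day 21 (-0.86). Etv5 was at 71.1, 28.5 and 38.4 TPM (-0.87), and Spred1, which recruits neurofibromin to RAS, at 168.5, 72.6 and 100.5 TPM (-0.74). These 3 were between the gefitinib and untreated values. Chosen after their values were seen, Dusp4 was at 173.2, 49.6 and 106.5 TPM (-0.70) and Spry4 at 28.8, 14.2 and 17.7 TPM (-0.67). None of these 5 passed 2-fold. The feedback phosphatase genes Dusp6 (0.19) and Dusp5 (1.53) were above the untreated level. The DC101 library of day 21, from a tumor given an antibody against mouse VEGFR2 after gefitinib, had Spry2 at 40.3 and Etv5 at 39.5 TPM.

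**Figure D2:**
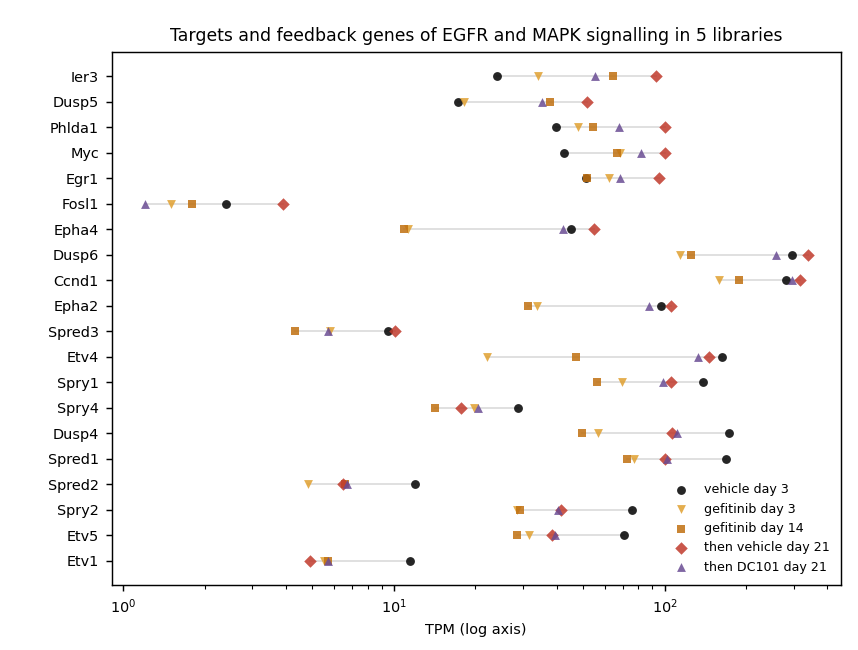
TPM (log axis) of the 20 MAPK target and feedback genes in the vehicle, gefitinib and DC101 libraries, ordered by the log2 difference of day 21 vehicle over day 3 vehicle. Ier3, Dusp5, Phlda1 and Myc at the top have the day 21 diamond to the right of the black day 3 circle, and Spry2, Etv5 and Etv1 at the bottom have it to the left.

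Receptors and ligands upstream of the cascade did not move together. Egfr itself, at chr11:16752203-16913907 of GRCm38.p6, had 629.8 TPM at day 3, 438.7 at day 14 of gefitinib and 446.7 at day 21, a log2 difference of -0.49, and Erbb3, its kinase-impaired partner, was at 147.4, 64.1 and 148.6 TPM (0.01). Of 11 ErbB receptor and ligand genes compared, 3 were higher and none lower, all 3 of them ligands. Across all compared genes 15.3% were higher. Areg, which encodes amphiregulin, was at 37.1, 27 and 179.1 TPM (2.24). Hbegf, which encodes heparin-binding EGF-like growth factor, was at 11.4, 18.7 and 61.5 TPM (2.33). Betacellulin, from Btc, was at 0.2, 2.9 and 3.7 TPM (1.97). The ligand gene Tgfa was on the other side, at 28.3, 10.7 and 21.4 TPM (-0.39). The list's median was 0.06, and turned to -0.04 with the rescaling that leaves out abundant genes. In the DC101 library Areg was at 100.9 and Hbegf at 24 TPM, both between the day 3 and day 21 vehicle values.

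Among 21 other receptor tyrosine kinases and their ligands, 8 were higher and 2 lower (median 0.28). Axl, a receptor for the ligand GAS6, was at 46.6 TPM at day 3, 624.7 at day 14 of gefitinib and 240.6 at day 21 (2.34), whereas Gas6 was at 915.7, 191.7 and 254.7 TPM (-1.84). Receptor and ligand thus moved in opposite directions between these libraries. Fgfr2, a fibroblast growth factor receptor of epithelia, was at 120.8, 27.2 and 34.2 TPM (-1.79). Receptors that mark stromal cells were on the higher side, with Pdgfra at 6.9 and 30.2 TPM (1.98) and Pdgfrb at 23 and 58.1 TPM (1.30) at days 3 and 21. Axl is also expressed by macrophages and fibroblasts, whose lists were higher as given below, and their part in the Axl difference was not tested.

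Proliferation genes had come back from gefitinib only in part. The 33 replication and mitosis genes summed to 3214 TPM at day 3, 788 at day 14 of gefitinib and 2142 at day 21. Their median at day 21 was -0.52, 32 of 33 lay below 0, none was higher and 1 was lower. That 1 was the spindle checkpoint kinase gene Bub1, at 32.8, 2.8 and 15.1 TPM (-1.07). Ube2c, a ubiquitin-conjugating enzyme of mitotic exit, was at 406, 39.8 and 228.1 TPM (-0.83), and Cdk1 at 60.2, 6.5 and 32.9 TPM (-0.85). Ccne1, which encodes cyclin E1 of the G1 to S transition, was the member above 0, at 23.8, 9.9 and 27.4 TPM (0.20). Epcam, an epithelial surface gene, had a difference of -0.78, and Mki67, a proliferation marker chosen after its values were seen, was at 0.249 of the Epcam level at day 3 and 0.272 at day 21. This ratio depends on the epithelial gene taken, since Krt8 (1.85), Krt18 (1.37) and Krt19 (1.25) were higher at day 21.

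Replication-dependent histone genes and ribosomal protein genes followed the same direction. All 12 histone genes were below 0 (median -0.97) and 5 were at least 2-fold lower, with Hist1h3b at 2187.5 TPM at day 3 and 920 at day 21 (-1.25). All 20 ribosomal protein genes were below 0 (median -0.58) and 1 was at 2-fold, with Rpl13 at 5085.4 and 2669.4 TPM (-0.93). Copies of such genes can be near-identical, and the sources used here do not say how shared reads were handled. The 12 reference genes had a median of -0.13, with none at 2-fold.

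Of 16 cell cycle inhibitors and p53 targets, 3 were higher and 1 lower (median 0.25), against 15.3% and 3.11% of all compared genes. These counts do not set the list apart. Cdkn2b, which encodes the CDK4 and CDK6 inhibitor p15, was at 2 TPM at day 3, 8.8 at day 14 of gefitinib and 18 at day 21 (2.66). Gdf15, a stress-induced cytokine, was at 67.7, 15.8 and 191.4 TPM (1.49). Cdkn1a, which encodes p21, was at 93.6 and 147.6 TPM at days 3 and 21, under 2-fold. The imprinted inhibitor gene Cdkn1c was at 26.9 and 10.5 TPM (-1.28).

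Lipid synthesis genes were near the untreated level as a group and part of the hypoxia genes were lower. Cholesterol and fatty acid synthesis genes, targets of the SREBP factors, had a median of -0.11, and 1 of 25 was higher and none lower. Their sum was 3657 TPM at day 3, 1712 at day 14 of gefitinib and 2836 at day 21. Fasn, fatty acid synthase, was at 1257.6, 398.3 and 728.8 TPM (-0.79), and Acly, which makes the acetyl-CoA used for lipid synthesis, at 400.4, 192.9 and 326.8 TPM (-0.29). Scd1, a fatty acid desaturase that adipocytes also express strongly, was at 26.2, 286.1 and 77 TPM (1.52), beside an adipocyte list that was higher too, and its part was not tested.

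Hypoxia and glycolysis genes were lower, with 5 of 19 at 2-fold and none higher (median -0.47). Egln3, an oxygen-sensing prolyl hydroxylase induced by HIF, was at 64.2 TPM at day 3, 6.4 at day 14 of gefitinib and 8.9 at day 21 (-2.72). Bnip3, a mitophagy receptor, was at 133.1, 28.4 and 39.6 TPM (-1.72). Ankrd37, Adm and Pdk1 were the other 3, between -1.01 and -1.24. Egln3 and Bnip3 at day 21 were nearer to their gefitinib than to their untreated level. Vegfa was at 74.2 and 66.5 TPM (-0.16) and Pkm at 1406.4 and 1612.6 TPM (0.20) at days 3 and 21, so the list did not move as a unit.

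Stress and cell death genes included some higher members. Of 16 NRF2 target and antioxidant genes, 4 were higher and none lower, among them Srxn1, sulfiredoxin, at 10.5 TPM at day 3, 50 at day 14 of gefitinib and 49.3 at day 21 (2.13), and the cystine transporter gene Slc7a11 at 1.1, 4.1 and 5.5 TPM (1.63). Over all genes 15.3% were higher, and 24.2% of those below 10 TPM, so this share does not set the list apart. Me1, malic enzyme, was at 177 and 112.5 TPM (-0.65) at days 3 and 21. Of 14 BCL2 family genes, 4 were higher and none lower, led by Pmaip1, which encodes the pro-death protein NOXA, at 1.6, 10.5 and 8.4 TPM (1.85), and the pro-death gene Bik at 4.5, 7.6 and 15 TPM (1.54). The same shares of 15.3% and 24.2% stand beside this count, and Pmaip1 and Bik were both under 10 TPM at day 3. The survival gene Bcl2l1 was at 80.1, 56.7 and 68.9 TPM (-0.21). Of 14 immediate early and heat shock genes, which also react to the handling of tissue, 6 were higher and none lower. Atf3 was at 5.8, 35.5 and 31.9 TPM (2.27) and Jun at 55.6, 149 and 157 TPM (1.48). How the tissues were handled before freezing was not tested.

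Epithelial genes differed unevenly, with simple keratins higher and Epcam lower. The 18 simple epithelium genes summed to 4811 TPM at day 3, 2454 at day 14 of gefitinib and 8727 at day 21, and 6 were higher and none lower (median 0.18). Krt8, a keratin of simple epithelia, was at 478.8, 341.1 and 1731.3 TPM (1.85), and its partner Krt18 at 791.4, 510.6 and 2050.6 TPM (1.37). Krt19 was at 552.6, 186.7 and 1314.6 TPM (1.25). Cldn4, a tight junction claudin, was at 26.9, 34.5 and 209 TPM (2.91), the highest difference in the list. Against these, Epcam was at 571.2, 101.8 and 332.3 TPM (-0.78) and the epithelial transcription factor gene Grhl2 at 51.1, 11.6 and 26.7 TPM (-0.91). The ratio of Krt19 to Epcam was 0.967 at day 3 and 3.96 at day 21. The DC101 library stood between, with Krt8 at 1024.2 and Cldn4 at 94.1 TPM.

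Most alveolar type 1 genes were higher and part of the alveolar type 2 genes lower. Type 1 cells are the flat gas-exchange cells that type 2 cells can give rise to. Of 15 type 1 genes, 9 were higher and none lower (median 1.12), and their sum was 878 TPM at day 3, 2370 at day 14 of gefitinib and 2011 at day 21. In all, 12 lay above 0 and 3 below, which were Akap5 (-0.585), Rtkn2 (-0.43) and Vegfa (-0.16). Ager, which encodes the receptor RAGE, was at 269.9, 815.8 and 627.2 TPM (1.21). Aqp5, a water channel, was at 137.8, 669 and 380.9 TPM (1.46), and Hopx at 11.5, 67.4 and 42.5 TPM (1.80). For Ager, Aqp5 and Hopx the day 21 level lay between the untreated and the gefitinib level.

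Of 17 type 2 genes, 1 was higher and 3 were lower (median -0.30). Sftpc, surfactant protein C, was at 8483.5 TPM at day 3, 4162.1 at day 14 of gefitinib and 2428.8 at day 21 (-1.80). Slc34a2, a phosphate transporter, was at 835.6, 226.2 and 297.3 TPM (-1.49), and Abca3, the lamellar body lipid transporter, at 308.6, 127.2 and 131.6 TPM (-1.22). Sftpb, surfactant protein B, did not share the drop, at 8417.7, 4709.3 and 9561.3 TPM (0.18). The higher member, Lyz2 (1.93), is a lysozyme gene that macrophages also express. The ratio of Ager to Sftpc was 0.0318 at day 3 and 0.258 at day 21.

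Secretory genes included the 3 lowest genes under the naming rule. Of 16 club, secretory and airway genes, 6 were lower and 4 higher. Dcpp3, which encodes a secreted salivary-type protein, was at 326.4 TPM at day 3, 3.5 at day 14 of gefitinib and 0.9 at day 21 (-7.43), the lowest difference among all genes eligible for naming. Its neighbour Dcpp1 was at 95.2, 1.7 and 0.3 TPM (-6.21), and the genes are close copies, so reads may be shared. Scgb3a1, a secretoglobin, was at 100.6, 2.8 and 2.5 TPM (-4.86). None of the 3 had come back after gefitinib, and in the DC101 library they were at 2, 0.8 and 4.4 TPM.

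Other secretory genes had different courses. Bpifa1, an abundant airway antimicrobial protein, was at 9875.9 TPM at day 3, 6497.9 at day 14 of gefitinib and 3235.2 at day 21 (-1.61). Cbr2, the lung carbonyl reductase, was at 343, 2397.6 and 42.3 TPM (-2.99), high during gefitinib and low afterwards. The 4 higher members were all at or under 9.2 TPM at day 21, Reg3g being at 1.2 and 9.2 TPM (2.21) at days 3 and 21. The median of this list was -0.26, and -1.67 over its members with a mean of at least 5 TPM.

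Some genes of gut-type epithelium were near 0 TPM at day 3 and well above it at day 21. Of 13 gastric and gut genes compared, 6 were higher and 2 lower (median 0.56). Of 22 list genes in the table, 9 are listed at 0 at day 3 and 8 at day 21. Without the filter on low genes the median was 0. Hnf4a, a transcription factor of liver and intestine, was at 1.4 TPM at day 3, 2.2 at day 14 of gefitinib, 52.3 at day 21 and 31.5 with DC101 (4.47). Vil1, which encodes the microvillus protein villin, was at 6.2, 1.3, 53.3 and 44.2 TPM (2.91), and the gut hormone gene Pyy at 0, 0.5, 13.8 and 1.9 TPM (3.89). Pyy passed the filter on low genes only through its day 21 level, so its place among the higher members was fixed by that level. Apob, an apolipoprotein of liver and intestine, was at 0.2, 8.7, 27.9 and 52 TPM. Of the 2 lower members, Foxa1, a factor of endoderm that lung epithelium also uses, was at 201.3 and 76.9 TPM at days 3 and 21 (-1.38). Cdx1, Cdx2, Pdx1, Tff2 and Tff3, named after their values were seen, are listed at 0 in both libraries, among them the defining intestinal factors.

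Cornified envelope and squamous keratin genes were also higher, 9 of 15 compared, with 2 lower (median 1.34). Sprr2a2, a small proline-rich protein of the cornified envelope, was at 0 TPM at day 3, 0.2 at day 14 of gefitinib, 54 at day 21 and 13.9 with DC101 (5.78). Krt17, an inducible keratin, was at 1.3, 13, 113.2 and 22.2 TPM (5.63), and Sprr1a at 2.3, 18, 78.7 and 24.4 TPM (4.59). The 2 lower members were Trp63, which encodes the basal cell factor p63, at 14.1, 1.7, 0.6 and 2.8 TPM (-3.24), and the late envelope gene Lce3f at 144, 6.1, 49.8 and 63.7 TPM (-1.51). Crct1 was at 228, 8, 172.3 and 185.6 TPM (-0.40). Sprr2a copies share sequence and their split is uncertain. Of 26 list genes in the table, 13 are listed at 0 at day 3 and 10 at day 21, and without the filter on low genes the median was 0.051. Of 9 skin and hair genes compared, mainly hair follicle and pigment genes, none was higher and 2 were lower, and the sum of the list was 39.7 TPM at day 3 and 18.7 at day 21. The part of epidermis was not tested.

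Of 13 imprinted growth genes, 4 were higher and 2 lower (median 0.72), and 11 lay above 0. Over all compared genes 15.3% were higher and 3.11% lower, and of those below 10 TPM 24.2% were higher. Dlk1, a Notch-related fetal protein, was at 822.5 TPM at day 3, 15 at day 14 of gefitinib, 171.6 at day 21 and 374.2 with DC101 (-2.25). Igf2, the fetal growth factor, was at 46.5, 25.3, 132.3 and 121.3 TPM (1.49). Dio3, a thyroid hormone deiodinase, was at 2, 3.7, 14.5 and 8.4 TPM (2.37).

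T cell transcripts remained well above the untreated level, though below that of day 14 of gefitinib. All 14 T cell receptor complex genes were higher (median 2.44), with a sum of 79.3 TPM at day 3, 1239 at day 14 of gefitinib and 514 at day 21. Cd3e, a signalling chain of the receptor, was at 5.3, 167.7 and 66.3 TPM (3.42). Of 17 CD8 and cytotoxic genes, 15 were higher and none lower (median 2.49). Cd8a, the CD8 coreceptor chain, was at 0.7, 58.8 and 30.6 TPM (4.22). Nkg7, a granule membrane protein of killer cells, was at 3.1, 178.9 and 93.9 TPM (4.53). Ifng, the interferon gamma gene, is listed at 0 at day 3 and was at 14.4 TPM at day 14 of gefitinib and 10.1 at day 21. Values were rounded to steps of 0.1 TPM, which Cd8a is close to at day 3, and the size of the differences of such low genes depends on the pseudocount: the CD8 median was 3.70 with 0.1 and 1.23 with 5.

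The granzymes did not move together. Gzme was at 8.5 TPM at day 3, 3.1 at day 14 of gefitinib and 158.9 at day 21 (4.07), with 98.4 in the DC101 library. It did not follow Cd8a across the libraries. With 4H2, the antibody against PD-1, Gzme is listed at 0 and Cd8a at 56 TPM. With both antibodies they were at 5.1 and 34.2 TPM. Gzma was at 3.4, 19.5 and 5.8 TPM (0.63). Gzmb, named after its values were seen, was at 3.1, 21.1 and 9.1 TPM (1.30). Of these 3, Gzme was higher at day 21 than at day 14 and the others were lower. Eomes, a T-box factor of killer cells, was at 26.8 and 25.5 TPM at days 3 and 21 (-0.07). At day 3 it stood beside Cd8a at 0.7 and Nkg7 at 3.1 TPM. Which cells carried the Gzme and Eomes RNA was not tested.

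Ratios to Cd8a rest on its 0.7 TPM at day 3, close to the rounding step. The ratio of Cd8a to Cd3e was 0.132 at day 3 (0.122 to 0.143 from rounding alone) and 0.462 at day 21, and that of Cd8a to Cd4 was 0.200 and 0.975. Foxp3, the regulatory T cell factor, named after its values were seen, was at 3.43 times the Cd8a level at day 3 (3.13 to 3.77 from rounding alone) and 0.373 times at day 21. Other genes over Cd8a were lower at day 21 too, Lag3 at 8.71 and 1.65 and Gzmb at 4.43 and 0.297. Of 12 CD4 and regulatory T genes, 8 were higher and none lower, with Cd4 at 3.5 TPM at day 3 and 31.4 at day 21 (2.85). Of 11 naive and memory T genes, 8 were higher and none lower, with Tcf7 at 2.8 and 9.5 TPM (1.47).

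Inhibitory checkpoint genes and ligands were higher in 12 of 14 cases, with none lower (median 2.17). Pdcd1, which encodes PD-1 (chromosome 1, 94038305 to 94052553), was at 0.8 TPM at day 3, 85.5 at day 14 of gefitinib and 27.5 at day 21 (3.98). Per unit of Cd8a it was 1.14 at day 3, 1.45 at day 14 and 0.899 at day 21. Tigit was at 1.5, 53.9 and 22.7 TPM (3.24) and Lag3 at 6.1, 99.7 and 50.4 TPM (2.86). Cd274, which encodes the PD-1 ligand PD-L1, was at 7.6, 74.2 and 36 TPM (2.11). Lgals9, which encodes galectin-9, a ligand of TIM-3, was highest at day 21, at 44.4, 132.1 and 274.9 TPM (2.60). The other members named were highest at day 14 among these 3 libraries.

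Natural killer and B cell genes were also on the higher side. Of 10 natural killer genes compared 7 were higher and none lower, and of 13 B and plasma cell genes 7 were higher and none lower. Jchain, which joins secreted IgA and IgM, was at 0.4 TPM at day 3, 288.8 at day 14 of gefitinib and 42.1 at day 21 (4.94). Klrc1 was at 0.1, 8.3 and 4.2 TPM (2.24). Most other compared members of these lists were under 10 TPM at day 21.

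**Figure D3:**
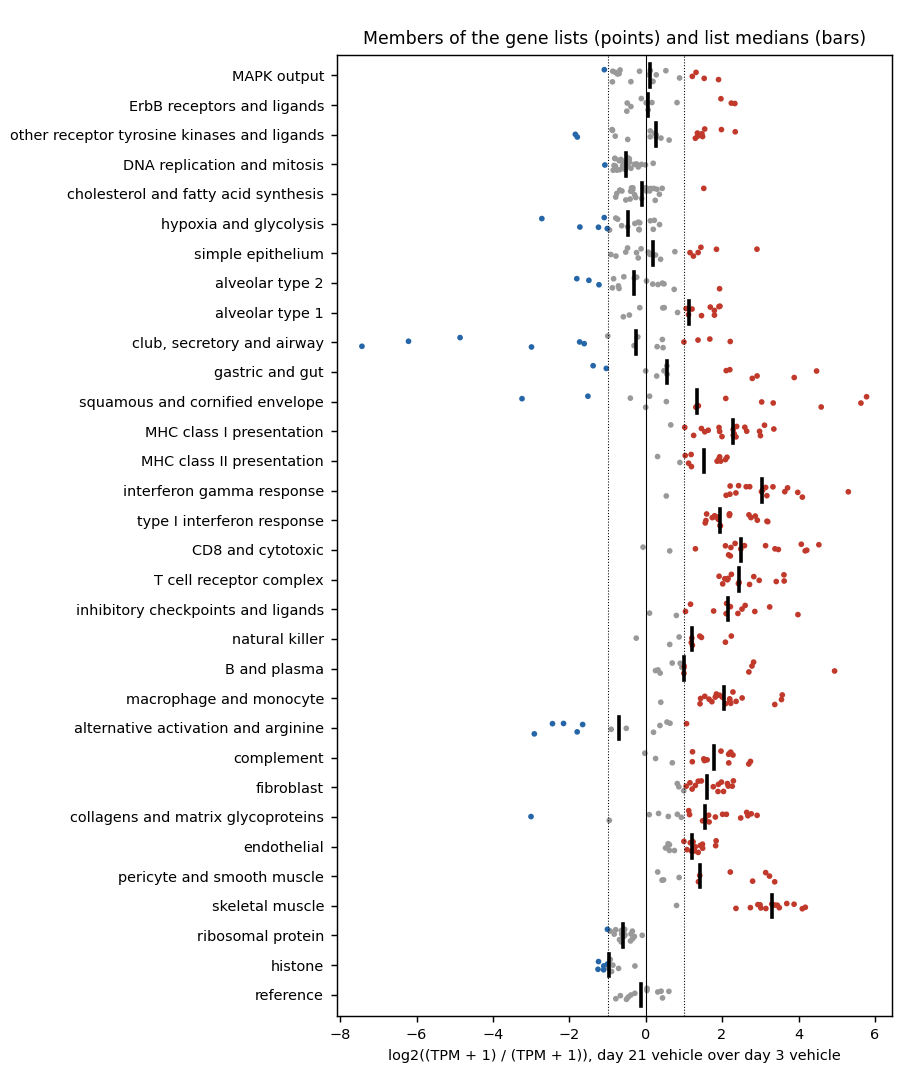
Log2 difference of day 21 vehicle over day 3 vehicle for each compared member (points) of 32 gene lists, with list medians as bars, 2-fold bounds dotted, and members at least 2-fold higher in red or lower in blue. MAPK output and ErbB genes centre near 0 (0.10 and 0.06), interferon gamma response and skeletal muscle genes have the highest medians (3.05 and 3.30), and secretory genes spread from -7.43 to 2.21.

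Interferon response and antigen presentation genes were higher nearly throughout. Of 18 interferon gamma response genes, 17 were higher and none lower (median 3.05), and all 19 type I interferon response genes were higher (median 1.96). Tgtp1, an interferon-inducible GTPase of cell-autonomous defence, was at 7.9 TPM at day 3, 301.7 at day 14 of gefitinib and 350.6 at day 21 (5.30). Gbp2, a guanylate-binding protein, was at 27.5, 564.8 and 372.9 TPM (3.71). Isg15, a ubiquitin-like modifier, was at 11, 115.4 and 86.6 TPM (2.87). Cxcl9, the chemokine that draws CXCR3-bearing T cells, was at 11.8, 511.9 and 111.8 TPM (3.14). Of these, Tgtp1 was higher at day 21 than at day 14.

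MHC class I presentation genes were higher in 19 of 20 cases and lower in none (median 2.29), with a sum of 3866 TPM at day 3, 26830 at day 14 of gefitinib and 17987 at day 21. B2m, the light chain of every class I molecule, was at 1055.6, 7688.3 and 5434.4 TPM (2.36). Nlrc5, the transactivator of class I genes, was at 10.3, 143.6 and 96.5 TPM (3.11), and the peptide transporter gene Tap1 at 55.5, 482.3 and 352 TPM (2.64). Relative to Ptprc, the pan-leukocyte gene CD45 (chosen after its values were seen), B2m was 63.2 at day 3 and 69.4 at day 21, whereas relative to Epcam it was 1.85 and 16.4. The second ratio depends on the epithelial gene taken. Epcam itself was lower at day 21 (-0.78), whereas Krt8 (1.85), Krt18 (1.37) and Krt19 (1.25) were higher. Class II genes, carried mainly by antigen-presenting cells, were higher in 10 of 12 cases, with H2-Ab1 at 1635.7 and 6260.9 TPM (1.94) at days 3 and 21. Which cells carried the class I RNA was not tested.

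Promoters of these genes can be read beside their levels. The 4 below are shown because they belong to the interferon and class I lists and each holds the core of an interferon-stimulated response element, which is GAAA, any 2 bases and GAAA again, searched on both strands and here in capitals (overlapping copies run together). Each sequence is the 160 bases before the gene's start, 5′ to 3′ on the gene's strand, from RefSeq for GRCm38.p6.
B2m, chr2:122147527-122147686, plus strand: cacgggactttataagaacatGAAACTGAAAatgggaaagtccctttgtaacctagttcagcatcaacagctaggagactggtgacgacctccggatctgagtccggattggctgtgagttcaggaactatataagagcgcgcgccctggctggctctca
Gbp2, chr3:142620503-142620662, plus strand: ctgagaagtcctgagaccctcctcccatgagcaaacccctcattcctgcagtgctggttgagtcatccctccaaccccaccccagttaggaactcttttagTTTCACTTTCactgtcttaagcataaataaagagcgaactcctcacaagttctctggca
Tgtp1, chr11:48992247-48992406, minus strand: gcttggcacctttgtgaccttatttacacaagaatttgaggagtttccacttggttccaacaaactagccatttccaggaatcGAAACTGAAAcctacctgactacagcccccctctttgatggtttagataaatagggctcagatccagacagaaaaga
Isg15, chr4:156200819-156200978, minus strand: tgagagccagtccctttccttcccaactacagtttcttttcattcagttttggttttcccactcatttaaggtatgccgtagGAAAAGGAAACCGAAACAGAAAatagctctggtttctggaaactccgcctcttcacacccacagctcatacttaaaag

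The core lies 139 to 130 bases before the start in B2m, 59 to 50 in Gbp2 (as TTTCACTTTC, the reverse strand), 77 to 68 in Tgtp1, and as 3 overlapping copies from 78 to 57 in Isg15. In windows from 250 bases before to 50 after each listed start, it was found in 11 of 14 interferon gamma response genes, 10 of 15 type I genes and 5 of 17 class I genes for which a promoter was matched. It was found in 3.99% of all 27025 genes with a promoter, in 3.89% of the 10609 compared genes with one, in 8.20% of the higher genes and in 2.60% of the lower genes. None of 12 MAPK output genes and none of 9 T cell receptor complex genes held it. The core of a gamma-activated site, TTCNNNGAA, which reads the same on both strands, was in 7 of 14 interferon gamma response genes and in 9.55% of all genes with a promoter. These are matches of letters and not sites shown to be bound.

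Macrophage transcripts were higher almost without exception, but genes of the alternatively activated state were mixed. Of 20 macrophage and monocyte genes, 19 were higher and none lower (median 2.05), and their sum was 3725 TPM at day 3, 40155 at day 14 of gefitinib and 15568 at day 21. C1qa, a complement component made by tissue macrophages, was at 423.8, 4330.2 and 2067.1 TPM (2.28). Ly6c2, a gene of inflammatory monocytes, was at 7.2, 271.4 and 95.3 TPM (3.55), and Cx3cr1 at 2.6, 79.1 and 41.9 TPM (3.57).

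Of 12 genes of alternative activation and arginine use, 5 were lower and 1 higher (median -0.71). Arg1, arginase 1, was at 142.4 TPM at day 3, 27.4 at day 14 of gefitinib and 18 at day 21 (-2.92). Cd163, a haemoglobin scavenger receptor, was at 18.1, 6.8 and 3.3 TPM (-2.15). Retnla was at 167.2, 1709.8 and 47.5 TPM (-1.79), high during gefitinib and below the untreated level after it. The higher member was Nos2, inducible nitric oxide synthase, at 4.1, 18 and 9.7 TPM (1.07). In all, 7 of the 12 lay below 0 and 5 above. Under 2-fold but above 0 were Clec10a at 44.1, 122.1 and 69.1 TPM (0.64) and Mgl2 at 94.4, 71 and 108.9 TPM (0.20). Chil3 was at 2.4, 5.9 and 4 TPM (0.56). Relative to the macrophage gene Adgre1, which encodes F4/80 and was chosen after its values were seen, Arg1 was 4.56 at day 3 and 0.156 at day 21, and Ly6c2 was 0.231 and 0.828.

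Of 7 neutrophil-list genes compared, 5 were higher and 1 lower (median 2.00), with Csf3r, the receptor for granulocyte colony-stimulating factor, at 4 TPM at day 3 and 19.6 at day 21 (2.04). The median is the value of Cxcl3, at 0.5 and 5 TPM, which passed the filter on low genes only through its day 21 level. Without that filter the median was 0.42. Of the defining genes among the 16 listed, S100a8 and S100a9 were at 0.6 and 0.4 TPM at day 3 and are listed at 0 at day 21, and Ly6g is listed at 0 in both, all 3 named after their values were seen. Other higher members, such as Mmp9 at 4.3 and 48.2 TPM (3.21) and Il1b at 3.8 and 19.7 TPM (2.11), are also expressed by macrophages. Of 14 dendritic cell genes, 5 were higher and none lower, with Clec9a, of the cross-presenting subset, at 0.9 and 6.3 TPM (1.94). Complement genes were higher in 13 of 16 cases and T cell and lymphoid chemokines in 12 of 16, with none lower in either list. Cfb, complement factor B, was at 39.9 and 272.8 TPM (2.74) and Ccl5 at 26 and 280.8 TPM (3.38).

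Fibroblast and matrix genes were higher, with one marked exception. Of 18 fibroblast genes, 15 were higher and none lower (median 1.61), and their sum was 2776 TPM at day 3, 13917 at day 14 of gefitinib and 9868 at day 21. Col1a1, the main fibrillar collagen chain, was at 943.5, 5500.7 and 3873.5 TPM (2.04). Of 21 other collagens and matrix glycoproteins, 14 were higher and 1 lower (median 1.56). Tnc, tenascin C of wounds and tumor stroma, was at 88.8, 148.2 and 560 TPM (2.64), with 131 in the DC101 library. Col12a1 was at 37.2, 227 and 258.2 TPM (2.76). Col14a1 was the exception, at 485.4, 104.7 and 59.7 TPM (-3.00). Per unit of Pdgfrb it was 21.1 at day 3 and 1.03 at day 21, against 41.0 and 66.7 for Col1a1.

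Genes of the TGF-beta response were higher in 13 of 18 cases and matrix proteases and their inhibitors in 11 of 16, with none lower in either. Ctgf, a connective tissue growth factor, was at 15.6 TPM at day 3, 226.3 at day 14 of gefitinib and 116.8 at day 21 (2.83), and Acta2, smooth muscle actin of myofibroblasts and vessel walls, at 26.2, 104.5 and 188.2 TPM (2.80). Mmp14, a membrane-bound collagenase, was at 104.6, 686.1 and 401.8 TPM (1.93). Acta2 was highest at day 21, and in the DC101 library it was at 65.7 TPM.

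General endothelial genes were higher, and genes of tip cells and of venules and lymphatics were mixed. Of 20 endothelial genes, 14 were higher and none lower (median 1.21). Kdr, which encodes VEGFR2 (chromosome 5, 75932827 to 75979072), was at 7.5 TPM at day 3, 18.6 at day 14 of gefitinib, 19.6 at day 21 and 11.4 with DC101 (1.28). Its ratio to Pecam1, a pan-endothelial gene chosen after its values were seen, was 0.279 at day 3 and 0.290 at day 21. Eng, the TGF-beta coreceptor endoglin, was at 29 and 106.7 TPM (1.84) at days 3 and 21. Of 12 genes of tip cells and VEGF response, 6 were higher and 2 lower. The lower pair were Apln, the ligand apelin, at 227.4, 7, 53.8 and 121.3 TPM (-2.06), and Esm1 at 4.7, 0.8, 1.4 and 0.3 TPM (-1.25), in the order given for Kdr. Aplnr, the receptor of apelin, was at 8.1 and 35.2 TPM (1.99) at days 3 and 21. Of 8 venule and lymphatic genes, 5 were higher and 1 lower. Icam1, an adhesion molecule of activated endothelium and other cells, was at 103 and 429.9 TPM (2.05), and the lower member, the lymphatic and macrophage gene Lyve1, at 12.8 and 4.7 TPM (-1.28).

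Genes of muscle, fat and nerve, which may border a tumor under the skin, differed as well. Of 15 skeletal muscle genes, 14 were higher and none lower (median 3.30). They summed to 308 TPM at day 3 and 3066 at day 21, against 2290 and 3628 at days 3 and 14 of gefitinib, 17045 with DC101, 80180 with 4H2, the antibody against PD-1, and 79156 with both antibodies. None of the 15 is listed at 0 in either vehicle library. Acta1, skeletal actin, was at 134.8 and 1200.7 TPM (3.15) at days 3 and 21, and Mb, myoglobin, at 5 and 107.6 TPM (4.18). Des, in the pericyte list, is a muscle gene too and was at 19.1 and 207.7 TPM (3.38). Adipocyte genes were higher in 6 of 11 cases, with a sum of 84.5 and 222 TPM, and nerve genes in 3 of 8, with a sum of 46.9 and 91.5 TPM. Erythroid and platelet genes were lower in 3 of 7 cases, with a sum of 285 and 174 TPM.

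When the 684 compared genes at least 4 times higher in both 4H2 libraries than at day 21 were left out, an alternative chosen after seeing the data, 1863 genes were higher and 412 lower. The median was then 1.77 for fibroblast genes (1.61 with all members), 1.61 for complement (1.79), 2.49 for CD8 and cytotoxic (2.49), 2.05 for macrophage and monocyte (2.05) and 3.05 for interferon gamma response genes (3.05). Genes of these lists that muscle or fat also express at lower levels are not taken out by this, and their part was not tested. Where the median is the same, few or no members were left out. An unchanged median therefore does not bear on the share of muscle or fat in a list.

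**Figure D4:**
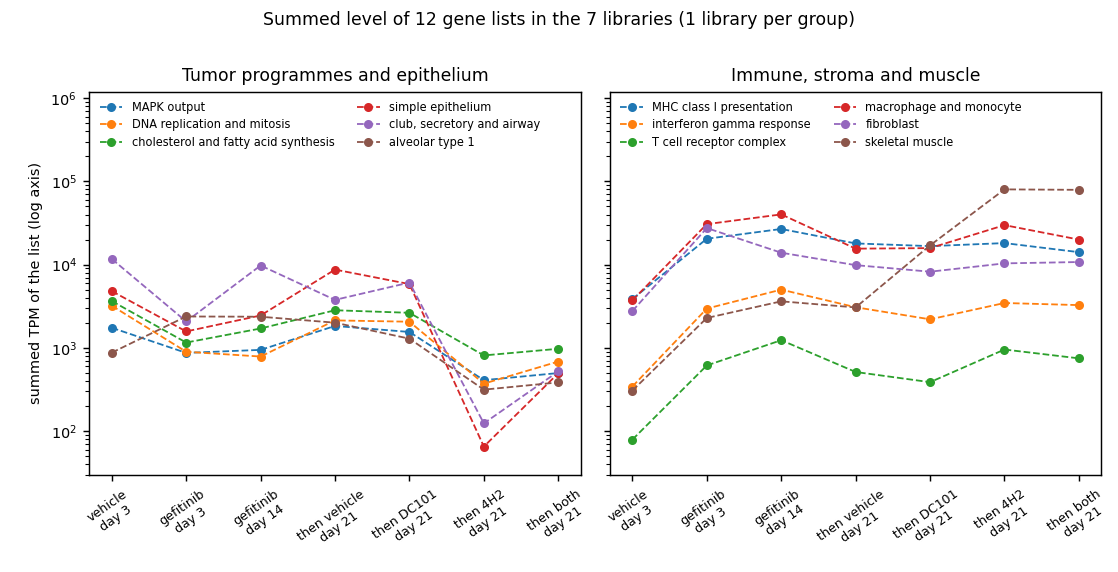
Summed TPM (log axis) of 12 gene lists in each of the 7 libraries, with 1 library per group; dashed lines only join the points of a list. MAPK output returns from 948 TPM at day 14 of gefitinib to 1837 TPM in the day 21 vehicle library, whereas MHC class I presentation remains at 17987 TPM against 3866 TPM at day 3.

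The 20 highest genes by the naming rule included members of the lists above and genes in no list. Among the latter were the interferon-induced genes Ifi27l2b (0.6 TPM at day 3 and 98.7 at day 21), Ubd (1.7 and 69.6 TPM) and Apol9a (1 and 40 TPM). Ifi27l2b was at 5.9 TPM at day 14 of gefitinib and at 77.8 TPM in the DC101 library, so it was higher 7 days after the drug than during it. Hpx, the haem-binding protein hemopexin, followed the same course, at 0.6, 3.1, 54.2 and 22.8 TPM. Cox8b, Tcap and Atp2a1 are genes of striated muscle, and Cox8b was at 0.6 TPM at day 3 and 62.2 at day 21. Ccl3, a chemokine of myeloid and T cells, was at 0.9 and 55.2 TPM.

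The 20 lowest genes included enzymes, transporters and secreted proteins of epithelia. Car4, a membrane-bound carbonic anhydrase, was at 251.5 TPM at day 3, 5.4 at day 14 of gefitinib, 18.5 at day 21 and 77.2 with DC101. Olfm5 was at 49.6, 1.1, 3.9 and 17.2 TPM, Cyp2c40, a cytochrome P450, at 70.2, 0.8, 8.5 and 27 TPM, and Clic6, a chloride channel-related protein, at 48.9, 2.8, 6.3 and 12.1 TPM. These 4 were higher with DC101 than with vehicle at day 21 and below day 3 in both. Kcnmb4, a potassium channel subunit, was at 34, 1.3, 1.7 and 1.3 TPM and stayed at the level reached under gefitinib. Aox3, an aldehyde oxidase, was at 17.7, 34.2, 1.4 and 1.9 TPM, higher under gefitinib and low only afterwards, as was Cbr2.

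**Figure D5:**
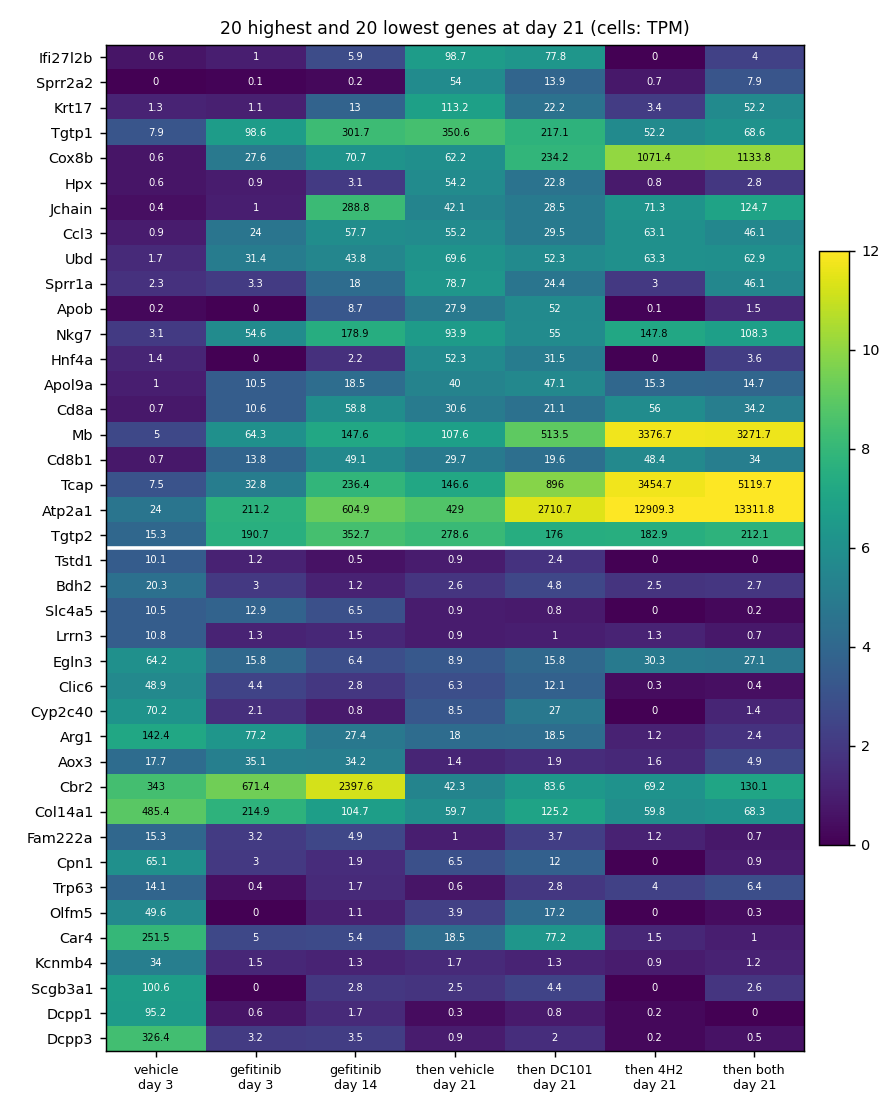
TPM (numbers) and log2(TPM + 1) (colour) in all 7 libraries for the 20 genes with the highest and the 20 with the lowest difference between the day 21 and day 3 vehicle libraries under the naming rule. The lower block is bright mainly in the day 3 vehicle column (Dcpp3 326.4 TPM), and Ifi27l2b, Hpx and Hnf4a in the upper block are bright mainly in the vehicle and DC101 columns of day 21.

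The DC101 library is the one closest to the day 21 vehicle library, with 593 of 13998 genes (4.24%) at least 2-fold apart in either direction. Both share the past gefitinib course and day 21, and differ in the antibody. Over the lists, the median against day 3 was 0.10 for MAPK output with vehicle and -0.38 with DC101, 3.05 and 2.43 for interferon gamma response, 1.12 and 0.38 for alveolar type 1, and 1.56 and 0.68 for collagens and matrix glycoproteins. In the other direction it was 3.30 with vehicle and 6.00 with DC101 for skeletal muscle, 1.55 and 2.63 for adipocyte, 0.56 and 0.90 for gastric and gut, and -0.81 and 0.36 for skin and hair genes. Both columns are set against the same day 3 library, so they are not independent.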

How the data were processed

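Total RNA of whole frozen tumors was sequenced from directional, ribosomal RNA-depleted libraries, per the labels' protocols. The deposited values are TPM, normalized by the authors within each library and rounded to 1 decimal. The submitters' processing notes name GRCm38.p6. Aligner and counter: not given in the sources used here. Depth is not kept in TPM, and no counting interval could be given. Groups follow the titles, 1 library each, so there was no test and no p-value. Differences were log2((TPM + 1) / (TPM + 1)) over genes averaging at least 1 TPM in the 7 libraries, called at 2-fold. Levels within a library are compared as TPM ratios. The comparison and the 52 lists (858 entries, 10 symbols not in the table) were chosen with earlier results of these data known. Named genes are the 20 highest and 20 lowest with at least 10 TPM in either library, without predicted and noncoding genes, histones, ribosomal proteins and antigen receptor segments. From each list come the 3 members highest in mean TPM, 5 farthest in the direction of its median and 3 in the other. Egfr, Pdcd1, Cd274, Cd8a, Kdr and Dlk1 are always given. Promoters are from RefSeq tables of the same build. Alternatives were other pseudocounts, filters, rescalings and list summaries. The scripts (Python 3.11.15, numpy 2.4.6, pandas 2.3.3, matplotlib 3.10.9) were tested on simulated data. Some members of the lists are not reported here by name.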

Additional observations from a re-analysis of the deposited data

How the results depend on the processing

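No paired analysis was possible because each group holds 1 library, and no library could be left out. Low genes are limited by the rounding to 0.1 TPM, and the depth is unknown. When abundant genes were left out of the scaling, the medians of MAPK output (-0.00) and ErbB genes (-0.04) changed sign. The erythroid and platelet median became 0.14, but over fewer members, since this alternative also takes the haemoglobin genes out of the list. Without the filter on low genes the erythroid and platelet median was -0.27. The higher and lower counts were 1196 and 233 with a pseudocount of 5, and 556 and 50 at 4-fold. With the other alternatives run they were within 1.5 times 2140 and 435.

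With a pseudocount of 5 the medians were 1.23 for CD8 and cytotoxic, 1.63 for T cell receptor complex, 0.95 for CD4 and regulatory T, 1.58 for checkpoints, 0.48 for naive and memory T, 0.41 for natural killer, 0.40 for B and plasma, 0.86 for neutrophil, 0.96 for venule and lymphatic and 0.60 for adipocyte genes. With 0.1 they were 3.70 for CD8 and cytotoxic, 3.16 for T cell receptor complex, 2.16 for natural killer and 2 for B and plasma genes. Without the filter they were 0.051 for squamous, 0.42 for neutrophil, 0.14 for mast and eosinophil and 0.84 for venule and lymphatic genes. With a mean of at least 5 TPM they were -1.67 for secretory, 1.85 for B and plasma and 2.28 for nerve genes. The mean of the members was -1.18 for secretory, 1.37 for gastric and gut and 1.38 for neutrophil genes. Without genes at least 4 times higher in both 4H2 libraries, chosen after seeing the data, the adipocyte median was 0.49. The other medians moved by less than 0.585 under every alternative run. Of 413 named genes, 72 moved by more than that with a pseudocount of 0.1 and 111 with 5, none with the median-of-ratios rescaling, and none of the 379 that the rescaling without abundant genes covers.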
